A study of Mus musculus with 11 samples.

Results

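The miRNAs described here are the arms of the miR-10a, miR-10b, miR-99a, miR-100 and miR-125b hairpins. They were taken by name from the count table of the series, each name once with its highest count over hairpins, which gave 10 of 1281 miRNA names. Small RNA was sequenced from liver of C57/B6 mice that lack telomerase, in 5 G4 p53+/+ libraries (short telomeres, intact p53) and 6 G4 p53-/- libraries (short telomeres, p53 lacking). All 11 libraries share the telomerase knockout and the short telomeres, and none was treated. The sources used here give no ages. The comparison asks which miRNAs depend on p53 in liver with short telomeres. Whether every library is its own animal is not stated in the labels, and p-values therefore measure the spread over these libraries, which may be technical.

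A miRNA is cut from a hairpin precursor and guides repression of messenger RNAs that pair with its seed, bases 2 to 8. The miR-10 hairpins lie within the Hox gene clusters and are known to repress Hox messenger RNAs. The miR-99/100 family is known to repress Mtor and Igf1r, and miR-125b is reported to repress the p53 messenger RNA itself and the sirtuin Sirt7. In vertebrates miR-99 or miR-100, a let-7 hairpin and a miR-125 hairpin lie together in paralogous clusters.

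The mature sequences are shown because the families rest on their seeds and because near-identical arms limit what the counts can tell apart. RefSeq (GRCm38.p6) gave all 10 members, printed 5′ to 3′ with the seed in capitals (the mouse prefix mmu is left out after this).
mmu-miR-10a-5p: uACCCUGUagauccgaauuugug
mmu-miR-10b-5p: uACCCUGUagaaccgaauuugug
mmu-miR-99a-5p: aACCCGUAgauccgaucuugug
mmu-miR-100-5p: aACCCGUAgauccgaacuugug
mmu-miR-125b-5p: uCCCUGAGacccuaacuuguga
mmu-miR-10a-3p: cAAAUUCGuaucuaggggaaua
mmu-miR-10b-3p: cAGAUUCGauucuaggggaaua
mmu-miR-99a-3p: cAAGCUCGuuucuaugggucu
mmu-miR-125b-1-3p: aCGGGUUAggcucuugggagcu
mmu-miR-125b-2-3p: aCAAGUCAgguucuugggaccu

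The 5p arms carry 3 seeds. miR-10a-5p and miR-10b-5p share ACCCUGU and differ by 1 base, U12A, counted from 1 at the 5′ end with the miR-10a-5p base first. miR-99a-5p and miR-100-5p share ACCCGUA and also differ by 1 base, U16A, with the miR-99a-5p base first. The sources used here do not say how the authors' counting treated a mismatch, so part of the reads could stand under the other name of either pair. miR-99b-5p, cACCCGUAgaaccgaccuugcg, has the seed of miR-99a-5p and differs from it at 4 bases. miR-125a-5p, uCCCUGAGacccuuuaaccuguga, shares the CCCUGAG seed with miR-125b-5p.

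On GRCm38 the hairpins lie at 4 loci, all on the plus strand. Mir10a (chromosome 11, 96317165 to 96317274) overlaps no other gene in GENCODE M21 and lies 993 bases from Hoxb4. Mir10b (chromosome 2, 74726070 to 74726137) lies in an intron of Hoxd3 and of Hoxd4. Mir99a (chromosome 16, 77598936 to 77599000) and Mir125b-2 (77646273 to 77646343) are 47272 bases apart in introns of the noncoding Mir99ahg. Mir125b-2 is also in an exon of C130023A14Rik, and Mirlet7c-1 is 656 bases downstream of Mir99a. Mir99a also lies in an intron of the protein-coding Gm11146 on the other strand. Mir100 (chromosome 9, 41531425 to 41531504) and Mir125b-1 (41581926 to 41582002) are 50421 bases apart in introns of the noncoding 3110039I08Rik, with Mirlet7a-2 between them. Mir100 also overlaps an exon of Gm48742 on the other strand, and Mir125b-1 an exon of Gm28119. Mature miR-125b-5p is the same from both loci, and only the 3p arms tell the hairpins apart.

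Total counts ran from 1905609 to 6682492 per library. The p53+/+ libraries 1 and 2 and the p53-/- library 11 had fewer than 3000000 counts each. The first principal component held 28.6% of the variance and set libraries 1 and 2 apart, with scores of -8.67 and -11.1 against -1.47 to 5.04 in the rest. On the second component p53-/- library 6 was the distant one, at -11.6. Hepatocyte miRNAs (6 names, led by miR-122-5p) summed to between 487705 and 844868 normalised CPM per library, where normalised CPM is the standard depth-scaled count further adjusted by TMM, the trimmed-mean normalisation of edgeR. In whole liver, fewer cells of a type and less RNA per cell cannot be told apart.

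All 10 members had reads, and 9 passed the filter on low counts and were tested. In sum the 10 names took 2.37 ± 0.468% of a p53+/+ library (SD, n = 5) and 2.21 ± 0.330% of a p53-/- library (SD, n = 6). By edgeR's quasi-likelihood test with Benjamini-Hochberg adjustment, 0 of the 9 passed an adjusted p under 0.05. Over all 388 miRNAs tested, 0.258% (1 miRNA, none of the members) passed. At an unadjusted p under 0.05 edgeR had 2 of the 9, miR-99a-3p and miR-10a-3p, both lower without p53, beside 17.3% of all miRNAs in either direction, 9.02% in that direction and 8.25% in the other. DESeq2 called 0 members, where it called 6.8% of the 250 miRNAs to which it gave an adjusted p (3.6% as lower); miR-99a-3p and miR-125b-1-3p got none there. By limma-voom 0 members passed, beside 0.258% of all. The members' log2 fold changes, given throughout as p53-/- minus p53+/+, were below 0 for 7 of 9 with a median of -0.10, where 51% of all miRNAs were below 0 with a median of -0.01.

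**Figure D1:**
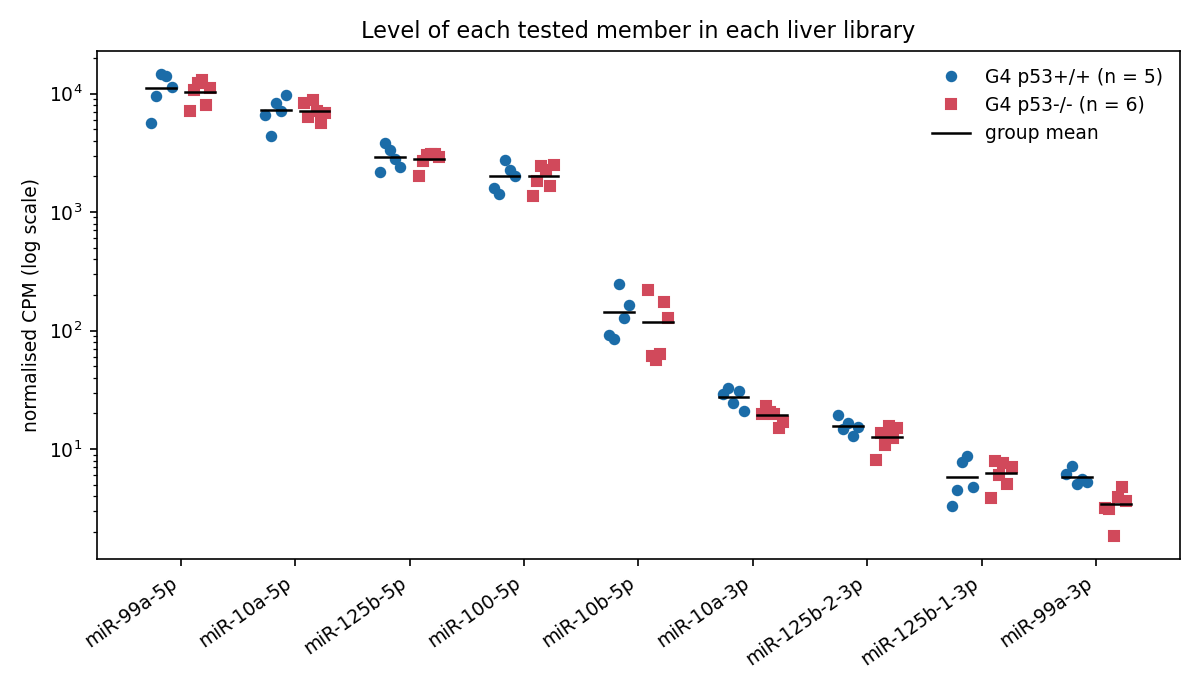
Normalised CPM (log axis) of the 9 tested members in each library, with p53+/+ libraries as blue circles, p53-/- libraries as red squares and group means as bars. The bars of both genotypes nearly coincide for miR-10a-5p, miR-100-5p and miR-125b-5p, and the groups of miR-99a-3p, at the right, do not overlap on this TMM-scaled axis.

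miR-99a-5p, the most abundant member and the 15th most abundant of all tested miRNAs by mean level, did not differ detectably between genotypes. The p53+/+ libraries 1 to 5 stood at 5693, 9459, 14662, 14013 and 11436 normalised CPM. The p53-/- libraries had a lowest value of 7118, a median of 10884 and a highest of 12914. The groups overlapped over nearly their whole range, with the lowest level of all in p53+/+ library 1 and the highest in p53+/+ library 3. Averages of 11052 ± 3647 (SD, n = 5) for p53+/+ and 10341 ± 2328 (SD, n = 6) for p53-/- gave a log2 fold change of -0.10 (SE 0.24, 95% confidence bounds -0.61 and 0.41, edgeR adjusted p = 0.866).

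miR-100-5p, its near twin from chromosome 9, had a fold change close to 0. Levels in p53+/+ libraries 1 to 5 were 1582, 1429, 2745, 2285 and 2004 normalised CPM. In p53-/- libraries they ran from 1379 through a median of 2046 to 2500. Means of 2009 ± 533 and 2011 ± 452 gave a log2 fold change of 0.00 (SE 0.21, 95% confidence bounds -0.45 and 0.45, edgeR adjusted p = 0.996). Its sign turned under other scalings: it was -0.02 with DESeq2's size factors in edgeR and -0.03 with library totals alone.

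miR-10a-5p, the Hoxb-linked arm, was the second most abundant member. It stood at 6529, 4358, 8368, 7061 and 9723 normalised CPM in p53+/+ libraries 1 to 5, and between 5600 and 8741 with a median of 6989 in p53-/- libraries. Every p53-/- value lay within the p53+/+ range. The means were 7208 ± 2017 and 7159 ± 1186, a log2 fold change of -0.01 (SE 0.20, 95% confidence bounds -0.43 and 0.41, edgeR adjusted p = 0.987), which turned to 0.07 with library totals that leave out miR-122-5p.

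miR-125b-5p, the arm reported to repress p53, also showed no detectable difference between livers with and without p53. Whether it represses p53 in mouse liver was not tested. Levels were 2176, 3813, 3349, 2790 and 2398 normalised CPM in p53+/+ libraries 1 to 5. The p53-/- libraries lay between 2025 and 3085, with a median of 2959, and 5 of the 6 were within 2704 to 3085. Means of 2905 ± 675 and 2801 ± 405.5 gave a log2 fold change of -0.05 (SE 0.17, 95% confidence bounds -0.43 and 0.32, edgeR adjusted p = 0.909). It was 0.01 with library totals that leave out miR-122-5p.

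miR-10b-5p, the Hoxd-linked paralog, was the most variable tested member. It had 92.0, 84.4, 248, 128 and 163 normalised CPM in p53+/+ libraries 1 to 5. The p53-/- libraries 6, 7, 8, 10, 11 and 12 had 221, 61.4, 56.4, 63.0, 175 and 128. Libraries 7, 8 and 10 were the lowest of all 11, while libraries 6 and 11 were above 4 of the 5 p53+/+ libraries. The coefficients of variation, SD over mean, were 46.4% and 59.0%, against medians over all tested miRNAs of 30.2% and 25.9%. Means were 143 ± 66.3 and 117 ± 69.3, and the log2 fold change was -0.29 (SE 0.40, 95% confidence bounds -1.15 and 0.57, edgeR adjusted p = 0.744), and it was -0.72 without the 3 libraries of fewer than 3000000 counts (adjusted p = 0.581 in edgeR). When single libraries were left out it was lowest, at -0.57, without number 6 (p53-/-) and highest, at -0.02, without number 3 (p53+/+).

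The 2 p53+/+ libraries that stood apart bore on these 5 arms. Without libraries 1 and 2 the log2 fold changes were -0.33 for miR-99a-5p, -0.19 for miR-100-5p, -0.19 for miR-10a-5p, 0.02 for miR-125b-5p and -0.54 for miR-10b-5p. The edgeR adjusted p-values of the 5 then lay between 0.455 and 0.965, all above the threshold.

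**Figure D2:**
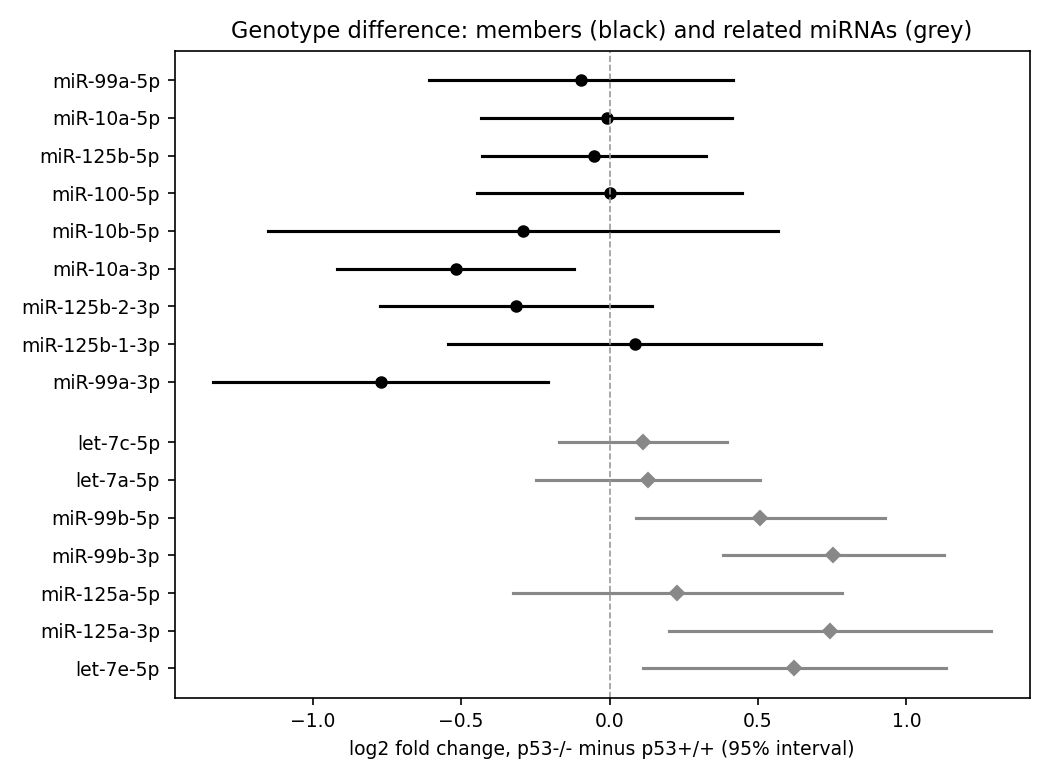
Log2 fold change, p53-/- minus p53+/+, with its 95% interval for the 9 tested members (black circles) and 7 related miRNAs (grey diamonds). The intervals of miR-10a-3p and miR-99a-3p lie below 0 before adjustment, and those of miR-99b-5p, miR-99b-3p, miR-125a-3p and let-7e-5p above 0; none passed the adjusted threshold in edgeR.

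The 3p arms are the minor products of these hairpins, and the 2 members with the smallest p were among them. miR-99a-3p rested on few reads, between 10 and 33 counts per library. It stood at 6.20, 7.22, 5.03, 5.55 and 5.23 normalised CPM in p53+/+ libraries 1 to 5. The p53-/- libraries ran from 1.85 through a median of 3.42 to 4.75. The groups did not overlap, which held for 2.32% of all tested miRNAs in either direction. This separation held with TMM scaling and not as a share of library totals, where p53-/- library 11 (0.000590% of counts) was above p53+/+ libraries 3, 4 and 5 (0.000517, 0.000512 and 0.000494%). Means were 5.85 ± 0.887 and 3.42 ± 0.966, and the log2 fold change was -0.77 (SE 0.26, 95% confidence bounds -1.33 and -0.21), with an unadjusted p of 0.0110 and an adjusted p of 0.174 in edgeR. A count of 0 leaves room for up to 3 counts, here 0.449 to 1.57 CPM before TMM scaling, and covers counting error only.

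miR-10a-3p stood at 29.1, 32.9, 24.5, 31.0 and 20.9 normalised CPM in p53+/+ libraries 1 to 5, and between 14.97 and 23.0, with a median of 19.9, in p53-/- libraries. Each of the 6 p53-/- values was under the p53+/+ median, but p53+/+ library 5 was within the p53-/- range. Means were 27.7 ± 4.91 and 19.2 ± 2.87, and the log2 fold change was -0.52 (SE 0.19, 95% confidence bounds -0.92 and -0.12, edgeR adjusted p = 0.180). Leaving out the 3 libraries of fewer than 3000000 counts gave -0.33 (adjusted p = 0.535 in edgeR). Without p53+/+ libraries 1 and 2, miR-10a-3p was at -0.36 and miR-99a-3p at -0.58 (edgeR adjusted p = 0.459 for both).

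The arms of the hairpins were set against each other within each library, where library scaling has no part. miR-10a-3p made up 0.427 ± 0.205% of both arms in p53+/+ livers and 0.271 ± 0.0474% in p53-/- livers. For miR-99a-3p the shares were 0.0609 ± 0.0313% and 0.0354 ± 0.0152%. The 5p to 3p ratio of miR-10a was higher in p53-/- libraries by 0.54 on the log2 scale (SE 0.32), with 6 of 6 above the p53+/+ median. That of miR-99a was higher by 0.76 (SE 0.42), with 5 of 6 above. Neither difference passed a two-sided exact permutation test over libraries (p = 0.104 for both, 0.312 after Benjamini-Hochberg adjustment over the 6 ratios computed; the smallest p this design allows is 0.00433). Without p53+/+ libraries 1 and 2 the differences were 0.16 and 0.27. That of miR-10a was 0.31 without p53+/+ library 2 alone and 0.76 without p53+/+ library 5.

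Depth moved with 2 of the ratios. The miR-99a 5p to 3p ratio was 884 to 1617 in the 3 libraries of fewer than 3000000 counts, 2 of them p53+/+, and 2137 to 6323 in the other 8. The ratio of miR-99a-5p to miR-125b-5p was 2.48 to 2.62 in those 3 libraries and 3.52 to 5.02 in the other 8, with no overlap in either case. The miR-10a 5p to 3p ratio was 131 to 370 in the 3 libraries and 227 or higher in the other 8, which overlap. The part of depth in these values was not tested. This split by total counts was chosen after the values were seen.

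**Figure D3:**
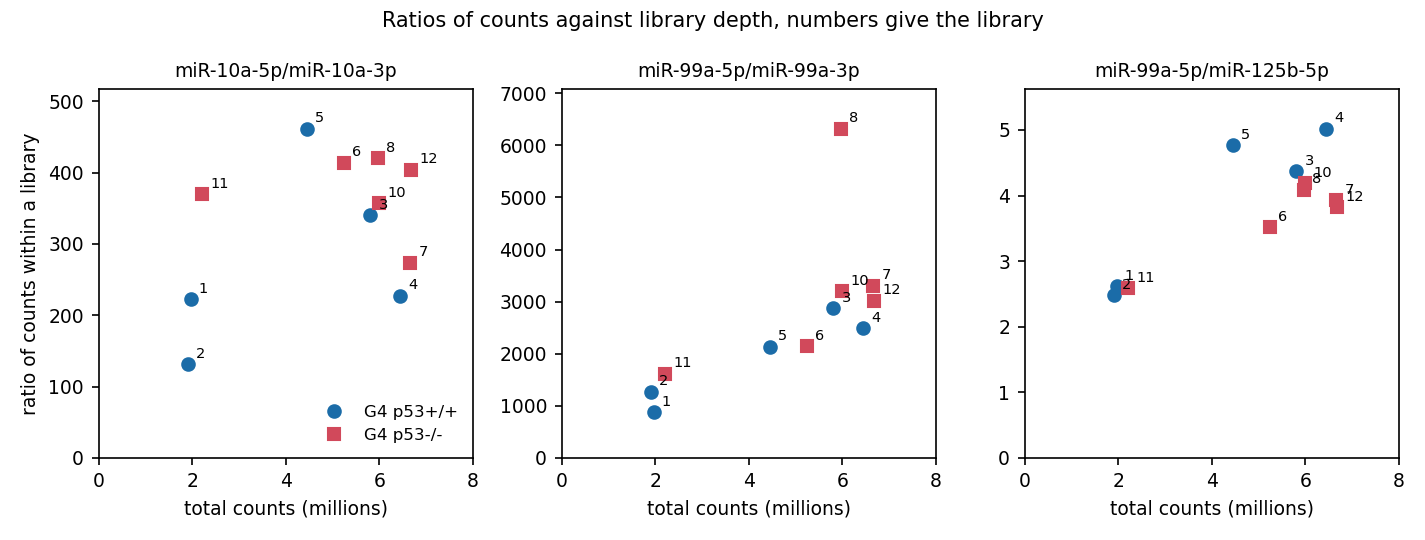
Ratio of counts within a library (vertical axes from 0) against the library's total counts, for p53+/+ (circles) and p53-/- (squares) libraries numbered as in the labels. Libraries 1, 2 and 11, with the fewest counts, hold the 3 lowest ratios of miR-99a-5p to miR-99a-3p and of miR-99a-5p to miR-125b-5p.

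With all libraries, none of the other ratios between members passed the test. miR-99a-5p had 5.37 times the counts of miR-100-5p in p53+/+ and 5.14 times in p53-/- livers (geometric means), a log2 difference of -0.06 (SE 0.16, exact permutation p = 0.723, adjusted 0.987). For miR-99a-5p over miR-125b-5p the difference was -0.02 (SE 0.24, exact permutation p = 0.987, adjusted 0.987), and for miR-100-5p over miR-125b-5p it was 0.05 (SE 0.24, exact permutation p = 0.866, adjusted 0.987). With the shallow libraries left out, each of these differences lay below 0. It was then -0.13 for miR-99a-5p over miR-100-5p and -0.14 for miR-100-5p over miR-125b-5p. In the 8 libraries of at least 3000000 counts, miR-99a-5p over miR-125b-5p was 4.38, 5.02 and 4.77 in p53+/+ libraries 3, 4 and 5, and 3.52 to 4.19 in p53-/- libraries. These groups did not overlap, in a split chosen after the values were seen. How many other ratios separate in this split was not counted. The log2 difference was -0.27 (adjusted exact permutation p = 0.214). Without p53+/+ libraries 1 and 2 alone it was -0.37 (adjusted exact permutation p = 0.143). With so few libraries, 0.214 and 0.143 are the smallest adjusted p-values that a lone ratio can reach. These tests could therefore not pass the threshold for it, and they do not decide whether this ratio differs between genotypes. miR-10a-5p had 52.6 times the counts of miR-10b-5p in p53+/+ and 69.8 times in p53-/- livers, a difference of 0.41 (SE 0.42, exact permutation p = 0.390, adjusted 0.779). That ratio ran from 33.8 to 70.8 in p53+/+ and from 32.0 to 155 in p53-/- libraries. The difference lay between 0.18 without p53-/- library 8 and 0.63 without p53-/- library 11, and was 0.76 without the 3 shallow libraries.

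The 3p arms of miR-125b come from separate hairpins. miR-125b-2-3p, from chromosome 16, had 15.8 ± 2.50 normalised CPM in p53+/+ livers and 12.6 ± 2.83 in p53-/- livers (log2 fold change -0.32, SE 0.21, edgeR adjusted p = 0.507). miR-125b-1-3p, from chromosome 9, had 5.81 ± 2.30 and 6.30 ± 1.58 (0.09, SE 0.29, edgeR adjusted p = 0.911). Of the reads of both arms, 26.8 ± 9.83% (SD, n = 5) were miR-125b-1-3p in p53+/+ libraries and 33.2 ± 2.69% (SD, n = 6) in p53-/- libraries, with ranges of 14.6 to 40.6% and 29.2 to 36.6%. Counts of 7 to 53 for miR-125b-1-3p limit these shares, and the ratio was not tested because library 1 had fewer than 10 counts. miR-10b-3p had 9 reads in all, 7 of them in p53+/+ library 3 and 2 in p53-/- library 11, too few to test.

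The hairpins of the near twins miR-99a and miR-100 are printed with both mature arms in capitals, since their minor arms were recovered so differently.
Mir99a: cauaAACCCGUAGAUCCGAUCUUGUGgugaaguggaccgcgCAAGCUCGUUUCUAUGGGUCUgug
Mir100: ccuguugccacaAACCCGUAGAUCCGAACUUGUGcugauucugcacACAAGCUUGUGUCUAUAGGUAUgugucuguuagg
Over all libraries miR-99a-3p had 219 counts beside 590934 of its 5p arm. miR-100-3p had 2 counts, both in p53-/- library 10, beside 110834 of miR-100-5p.

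Levels were also summed over all names with one seed, as shares of counts and with no test. The ACCCUGU seed held 0.741 ± 0.170% of counts in p53+/+ and 0.709 ± 0.0613% in p53-/- livers, of which miR-10a-5p gave 98.1 ± 0.567% and 98.3 ± 0.991%. The ACCCGUA seed held 1.51 ± 0.406% and 1.48 ± 0.297%. Within it miR-99a-5p gave 73.3 ± 4.94% in p53+/+ and 68.4 ± 3.45% in p53-/- livers, miR-100-5p 13.8 ± 2.52% and 13.3 ± 1.09%, and miR-99b-5p 12.9 ± 2.56% and 18.2 ± 3.41%. The CCCUGAG seed held 0.449 ± 0.153% and 0.439 ± 0.0727%, with 67.8 ± 8.50% and 63.3 ± 8.02% of it from miR-125b-5p, 28.1 ± 7.75% and 32.9 ± 7.53% from miR-125a-5p, and 4.02 ± 1.44% and 3.87 ± 0.677% from miR-351-5p. So by group means miR-10a-5p, miR-99a-5p and miR-125b-5p were the main bearers of their seeds in these livers. For CCCUGAG the lead was small in p53-/- library 6, with 8831 counts of miR-125b-5p beside 8568 of miR-125a-5p. Over all libraries the lowest share of miR-125b-5p was 48.2% and the highest of miR-125a-5p 46.7%.

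The related miRNAs were read from the same fit. Of the cluster partners, let-7c-5p was at 0.11 (SE 0.13, edgeR adjusted p = 0.688) and let-7a-5p at 0.13 (SE 0.18, edgeR adjusted p = 0.735), but both also come from hairpins elsewhere. The arms that mark the clusters themselves, let-7c-1-3p and let-7a-2-3p, had 39 and 6 reads in all and were not tested. Of the listed paralogs in the related cluster, miR-99b-5p was at 0.51, miR-99b-3p at 0.75, miR-125a-5p at 0.23, miR-125a-3p at 0.74 and let-7e-5p at 0.62. Each of these was above 0, with edgeR adjusted p-values from 0.136 to 0.684. The other let-7e arm, let-7e-3p, was not on the list and was at 0.06 (SE 0.21, edgeR adjusted p = 0.922). The groups of miR-99b-3p did not overlap (36.1 to 48.1 normalised CPM in p53+/+, 57.9 to 96.5 in p53-/- libraries), which held for 2.32% of all tested miRNAs in either direction. With single libraries left out, miR-99b-3p stayed between 0.67 and 0.81 and miR-125a-3p between 0.63 and 0.80. Other sizes depended more on which libraries were kept. let-7e-5p was at 0.38 without p53-/- library 6, and at 0.17 with only the p53-/- libraries of HA number (a number in the labels, not explained there) above 500, where miR-99b-3p was at 0.49 and miR-125a-5p at -0.02. Without p53+/+ libraries 1 and 2, miR-99b-5p was at 0.30 and miR-125a-5p at 0.79, with edgeR adjusted p-values of 0.389 and 0.204. None of the 7 tested related miRNAs passed in edgeR, while DESeq2 called miR-99b-3p (adjusted p = 0.00420). Whether the paralogs differ from the members in response was not tested.

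Across the 11 libraries the 2 near twins varied together. Pearson's r of log2 normalised CPM of miR-99a-5p and miR-100-5p was 0.82 and Spearman's rho 0.84 (permutation p = 0.00171 and 0.00236, adjusted over the 10 pairs of main 5p arms 0.0171 and 0.0236). Taken as deviations from the genotype means, r was 0.83 (permutation p = 0.00146, adjusted 0.0146). Within the 6 p53-/- libraries it was 0.91, and no value is given here for the p53+/+ libraries alone. Without the libraries farthest from the median of miR-99a-5p, p53+/+ library 1 and p53-/- library 6, r was 0.81. Without p53+/+ library 3 it was 0.79 with an adjusted permutation p of 0.0699. Some miRNAs that are not members had a higher r with each twin. That of miR-674-3p was 0.85 with miR-99a-5p and 0.89 with miR-100-5p. The hairpins lie on different chromosomes, and reads shared between the names could also link their counts, a part that was not tested.

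No other pair passed with all libraries. miR-99a-5p and miR-125b-5p, which share a cluster on chromosome 16, gave r = 0.55 and rho = 0.45 (permutation p = 0.0818 and 0.163, adjusted 0.321 and 0.407), and r was -0.15 without p53+/+ library 1 and p53-/- library 6. In the 8 libraries of at least 3000000 counts, r was 0.87 for that pair (permutation p = 0.00831, adjusted 0.0277) and 0.92 for miR-100-5p with miR-125b-5p (permutation p = 0.00225, adjusted 0.0225), while neither passed by rho there (adjusted permutation p = 0.184 for both). Nor did miR-99a-5p with miR-100-5p in those 8 libraries, with r = 0.90 (adjusted permutation p = 0.0277) but rho = 0.69 (adjusted permutation p = 0.229). miR-10a-5p and miR-10b-5p, which lie in different Hox clusters, gave r = 0.28 and rho = 0.20 (permutation p = 0.418 and 0.555, adjusted 0.596 and 0.793), and r = 0.10 without p53+/+ libraries 2 and 5.

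**Figure D4:**
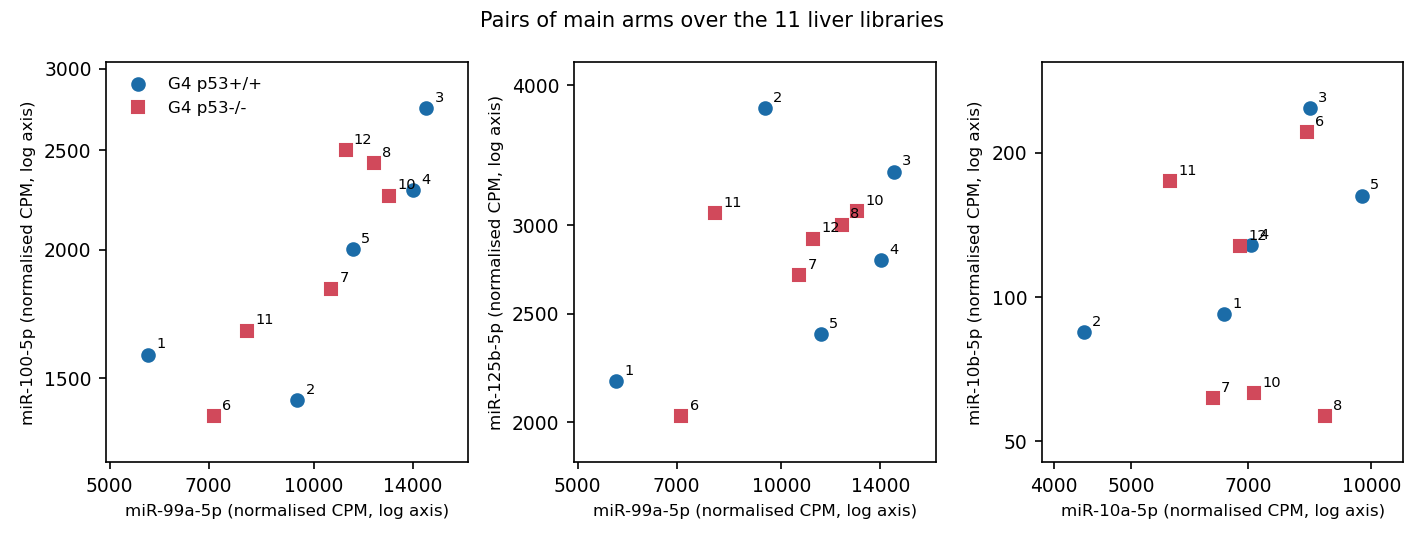
Normalised CPM of pairs of 5p arms in the 11 libraries (both axes on a log scale, circles p53+/+, squares p53-/-, numbers as in the labels). miR-99a-5p and miR-100-5p are high and low together (r = 0.82), libraries 2 and 11 lie high for miR-125b-5p beside libraries of like miR-99a-5p, and miR-10a-5p and miR-10b-5p are not (r = 0.28).

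Among the 244 other tested miRNAs with a mean of at least 10 normalised CPM, those most like each arm over the 11 libraries were ranked by Pearson's r of log2 levels, as a description. For miR-10a-5p they were miR-192-5p (r = 0.87), miR-1839-5p (0.85) and miR-221-5p (0.84). For miR-10b-5p they were miR-200b-3p (0.86), miR-200c-3p (0.81) and miR-224-5p (0.71). For miR-99a-5p they were miR-192-3p (0.86), miR-674-3p (0.85) and miR-350-3p (0.83), and for miR-100-5p miR-674-3p (0.89), miR-1843a-5p (0.88) and miR-27b-3p (0.88). For miR-125b-5p they were miR-497-5p (0.93), miR-28a-5p (0.84) and miR-214-5p (0.83). No name stood on more than 1 of these lists except miR-674-3p, shared by the twins miR-99a-5p and miR-100-5p. Each name listed for either twin had a higher r with it than the 0.82 between the twins. Among the members themselves, miR-125b-1-3p was the one most like miR-99a-5p (r = 0.87). The libraries share their scaling and differ in depth, which these values include.

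Markers of other cell types were read beside the members, and no marker passed in edgeR. Summed levels overlapped between genotypes for each of the 8 lists, and no listed marker was at 0 in all libraries. The 10 mesenchymal markers summed to 4982 to 8980 normalised CPM in p53+/+ and 5694 to 6762 in p53-/- libraries, with 9 of 10 below 0 (median -0.17). The endothelial miR-126 arms summed to 6012 to 11013 and 5772 to 10476, both below 0 (median -0.27). The 5 epithelial markers, among them miR-200b-3p and miR-200c-3p that varied with miR-10b-5p, summed to 810 to 2745 and 661 to 2223, with 5 of 5 below 0 (median -0.59). Hepatocyte markers had 3 of 6 below 0 (median 0.05), leukocyte markers 1 of 5 (median 0.18) and erythroid markers 2 of 5 (median 0.25). Of the pancreas and muscle markers 2 of 4 and 2 of 3 were tested, all below 0 (medians -3.35 and -0.78), with summed levels of at most 410 and 45.6 normalised CPM. The part of any cell type in the members' levels was not tested.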

How the data were processed

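The deposited values are raw counts for each mature miRNA and hairpin. The authors also deposited CPM, scaled per library over all 1418 entries including repeats. The submitters' processing notes name GRCm38 and limma, without roles; the sources used here name no aligner or counter. Values in the library files were identical to the series table (0 differing). The CPM table was used only to compare it with the counts scaled over all entries, where the largest difference was 0.0050 CPM. Only miR-125b-5p among the members was listed for more than 1 hairpin, with copies that differed by at most 0.273%; the higher was used. Per the labels' protocols, RNA came from 50 mg of liver.

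Genotypes were compared with edgeR 4.0.16 in R 4.3.3 (filterByExpr, TMM, quasi-likelihood F-test), with Benjamini-Hochberg adjustment over 388 miRNAs holding 99.98% of counts. The test was also run on simulated counts, which held no libraries that stood apart in composition. Its outcome there is not given here and is not used as support. DESeq2 1.42.0 and limma-voom (limma 3.58.1) were alternatives, as were other scalings, filters on low counts, the lowest count over hairpins and leaving out libraries. Ratios had 0.5 added to each count and needed at least 10 counts of both names in every library, so 6 of 8 planned ratios were computed, tested by exact permutation. Relations used 100000 resamples. The text names all members, the listed cluster partners and paralogs, and the 3 miRNAs most like each main arm. It also names let-7e-3p, and single markers where a result turned on them. Members and lists were chosen with earlier results of these data known.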

Additional observations from a re-analysis of the deposited data

Results flagged for a closer look

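In 44 groups of values (the members, their relatives and the 6 ratios, by genotype), 6 had 1 library far from the rest. Chance gives about 1 in 20 for a single group. The groups share libraries, scaling and members, and whether 6 exceeds chance was not tested. Among p53-/- libraries, miR-125b-5p was lowest in library 6, at 2025 normalised CPM where the other 5 lay between 2704 and 3085. In p53+/+ library 2 the log2 ratio of miR-100-5p to miR-125b-5p was -1.42, where the other 4 lay between -0.46 and -0.26. In p53-/- library 11 the log2 ratio of miR-99a-5p to miR-125b-5p was 1.37, where the other 5 lay between 1.81 and 2.07. Libraries 2 and 11 are among the 3 with fewer than 3000000 counts.

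The other 3 were paralogs. miR-99b-5p reached 3618 normalised CPM in p53-/- library 8, where the others lay between 2394 and 2653. let-7e-5p reached 1534 in p53-/- library 6, beside 554 to 865. miR-99b-3p was at 36.1 in p53+/+ library 2, beside 44.8 to 48.1.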

How the results depend on the processing

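No paired analysis was possible because the replicate numbers run on from one genotype to the other and none is shared. Under the alternatives run, 0 members passed. No ratio passed either, but where p53+/+ libraries were left out a lone ratio could not: its smallest possible adjusted p was 0.0571 without 1 of them, 0.143 without libraries 1 and 2, and 0.214 without the 3 shallow libraries. Of all miRNAs 1 passed, except with DESeq2 (17). Signs near 0 were not fixed. The log2 fold change of miR-100-5p was -0.023 with DESeq2's size factors in edgeR, -0.029 with library totals, -0.023 in DESeq2, -0.026 with no filter, -0.011 with at least 10 CPM in 5 libraries, -0.0088 with the lowest count over hairpins, -0.19 without p53+/+ libraries 1 and 2, and -0.17 without the 3 libraries of fewer than 3000000 counts. miR-10a-5p was 0.067 with totals that leave out miR-122-5p and 0.019 in limma-voom. miR-125b-5p was 0.011 with totals that leave out miR-122-5p, 0.021 without p53+/+ libraries 1 and 2, and 0.045 when only HA numbers above 500 were kept among p53-/- libraries. There let-7a-5p was -0.14 and miR-125a-5p -0.021. miR-125b-1-3p was -0.12 without libraries 1 and 2, and -0.11 without the 3 shallow ones. The log2 ratio of miR-100-5p to miR-125b-5p was -0.22 and -0.14 in these 2 cases. With library totals, r of miR-10b-5p was 0.072 with miR-100-5p and 0.062 with miR-125b-5p. The cause was not tested.

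With each library left out in turn, log2 fold changes ran from -0.14 to 0.089 for miR-100-5p, -0.17 to 0.10 for miR-10a-5p, -0.15 to 0.033 for miR-125b-5p and -0.037 to 0.24 for miR-125b-1-3p. Log2 ratio differences ran from -0.17 to 0.12 for miR-100-5p/miR-125b-5p, -0.21 to 0.013 for miR-99a-5p/miR-100-5p and -0.16 to 0.095 for miR-99a-5p/miR-125b-5p. miR-10b-5p ran from -0.57 to -0.020, and the miR-10a 5p to 3p ratio from 0.31 to 0.76. miR-99a-3p stayed between -0.87 and -0.68 and miR-10a-3p between -0.63 and -0.43, with edgeR adjusted p-values from 0.153 to 0.311. Both were closer to 0 without p53+/+ libraries 1 and 2 together, at -0.58 and -0.36. With only HA numbers above 500 among p53-/- libraries they were -0.53 and -0.70 (edgeR adjusted p = 0.597 and 0.404). The pairs of main arms that passed numbered 0 (without p53+/+ library 3) to 2 (without p53+/+ library 2), and 3 without the 3 shallow libraries. The shallow-library split, the leave-outs of the relations and all alternatives for seed sums were chosen after the data were seen.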
